A study of Zygosaccharomyces bailii with 18 samples.

Results

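The acetic acid response of the Zbhaa1 deletion mutant of Zygosaccharomyces bailii IST302 was described from the ORFs listed in the deposited table that compares acid-treated with unstressed mutant cells. The table holds 268 ORFs, against 5141 protein-coding ORFs annotated in the reference assembly of this strain, and all 268 were found in that annotation. The cells compared were Zbhaa1 mutant cells after 1 h with 140 mM acetic acid at pH 4.0 (3 libraries), and unstressed mutant cells at the same pH (3 libraries). Parental cells, with and without acetic acid, and parental cells after 1 h with 0.08 mM copper were used beside them (3 libraries each). Every mutant library lacks the same gene, ZbHAA1, so the comparison is within a single genotype. Unstressed cells were collected when the acid was added, 1 h before the acid-treated cells, so acid and an hour of growth cannot be told apart.

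Z. bailii is a food spoilage yeast known for its tolerance of acetic acid. In Saccharomyces cerevisiae the transcription factor Haa1 activates genes during weak acid stress, and ZbHaa1 is its homologue in Z. bailii. Weak acids cross the plasma membrane undissociated, release protons in the cytosol and leave the anion inside. Yeast cells under stress usually change the expression of ribosomal protein genes together, along with genes for chaperones, nutrient uptake and carbon metabolism. Gene names below are those of S. cerevisiae homologues, and roles are those known from S. cerevisiae.

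The table gives for each ORF a log2 fold change of acid-treated over unstressed cells, an average level in log2 CPM (CPM, read counts scaled to a common library size) and an FDR (the p-value adjusted over all genes tested). Every ORF in it passed the limits set for FDR (0.05) and for fold change (1.5). An ORF that is absent did not pass, and its size is unknown. No values per library were analysed here, so the level of each group was computed from the fold change and the average, and the SE given for a fold change is the one its FDR implies when read as a p-value, which is larger than the true SE. The direction of the comparison was checked with levels. For 8 ORFs listed also between the strains in acid, the acid-treated mutant level implied here differed from the level implied there by 0.14 in log2 CPM (median, with an SD of 0.041 over the ORFs). The unstressed level implied here differed from that same level by 1.21 (median, with an SD of 0.67). The table between the strains in acid carries another caption in the paper's supplement, which describes it as acid-treated against unstressed mutant cells. Its name and its levels are those of a comparison with acid-treated parental cells, since for 19 ORFs its reference level minus the acid-treated parental level was -0.05 in log2 CPM (median, with an SD of 0.017). ZbHAA1 (ZBIST_2620) was listed in 0 of the 5 tables used, so the deletion could not be checked through the deleted gene.

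Of the 268 ORFs, 63 were higher and 205 were lower in acid-treated mutant cells, which is 1.23% and 3.99% of all annotated ORFs. The number of ORFs tested is not in the table, so these shares are lower limits. A homologue was named for 135 ORFs, 31 of the higher and 104 of the lower ones. A further 40 ORFs had no named homologue, and 93 had no entry in the tables that name homologues and are known by their ORF number alone. Gene lists draw on 1295 named ORFs, of which 2.39% were higher and 8.03% were lower, and the counts per list below are read against these shares.

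Increases were small and decreases were not. The log2 fold change of the higher ORFs lay between 0.59 and 1.04 with a median of 0.66, and 1 of 63 exceeded 2-fold. The lower ORFs lay between -4.60 and -0.59 with a median of -0.997, and 102 of 205 exceeded 2-fold. The higher ORFs were also the more abundant ones. Their median average level was 8.70 log2 CPM, against 4.32 log2 CPM for the lower ORFs, and 25 of the 26 listed ORFs with an average of at least 10 log2 CPM were higher. The 63 higher ORFs together took 138269 CPM in acid-treated mutant cells and 87851 CPM in unstressed ones. The 205 lower ORFs together took 6193 CPM in acid-treated and 14355 CPM in unstressed mutant cells.

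**Figure D1:**
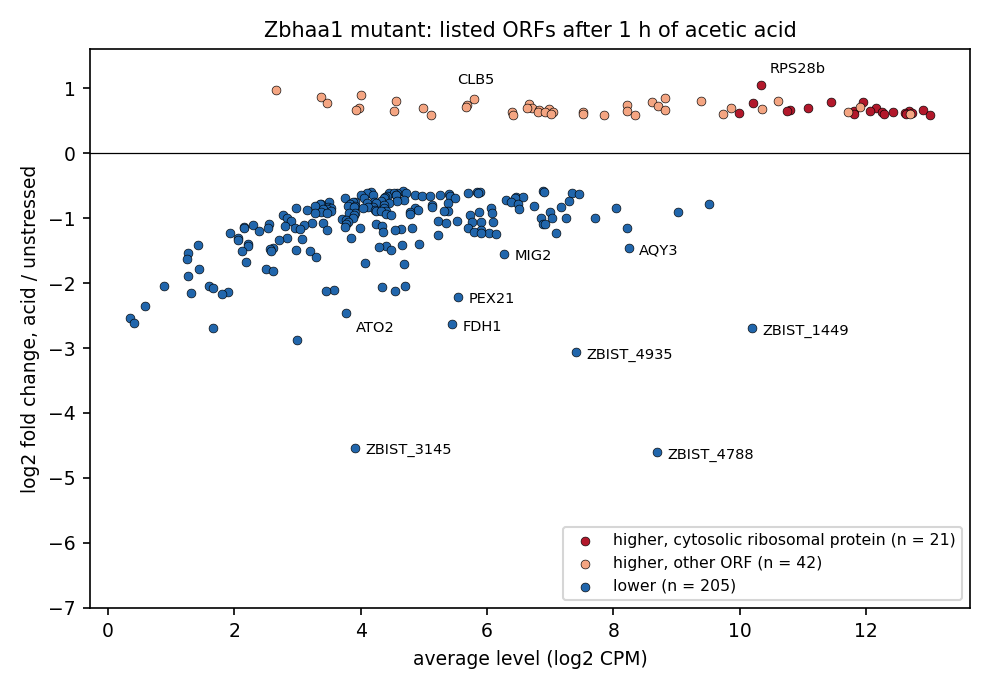
Log2 fold change of acid-treated over unstressed mutant cells (vertical axis) against the average level in log2 CPM (horizontal axis) for each of the 268 listed ORFs, with 1 point per ORF. The 21 cytosolic ribosomal protein ORFs (dark red) sit at the highest levels with fold changes between 0.59 and 1.04, and the lower ORFs (blue) reach -4.60.

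Genes for cytosolic ribosomal proteins made up the largest named group among the higher ORFs. Of 75 ORFs named as such, 21 were higher in the acid-treated mutant, 0 were lower and 54 were not listed. They encode 9 proteins of the large subunit, 10 of the small subunit and 2 of the acidic stalk. Their median log2 fold change was 0.65, beside 0.66 over all higher ORFs, and 21 of 31 higher ORFs with a named homologue (67.7%) belonged to this group. Short genes were common among all higher ORFs, with 76.2% below 500 bp, against 20% in the parental strain. Of the 75 ribosomal protein ORFs, 38 (50.7%) are that short. Of the 21 higher ones, all but RPS11a (583 bp), RPS16a (646 bp), RPS19a (565 bp) and RPS14b (580 bp) are that short. Among all annotated ORFs below 500 bp, 7.61% were listed as higher. The part of gene length, or of library quality, in the count of 21 was not tested. Summed over the 21 ORFs, the level was 108946 CPM in acid-treated mutant cells and 69382 CPM in unstressed mutant cells, a ratio of 1.57.

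RPS28b (ZBIST_0599), for a protein of the small subunit, showed the largest increase of any ORF. Its implied level was 1749 CPM in acid-treated and 849 CPM in unstressed mutant cells (log2 fold change 1.04 ± 0.19 SE, n = 3 libraries each, edgeR FDR = 3.36e-08). The other 20 ribosomal protein ORFs rose by less than 2-fold. RPL37a (ZBIST_4293) had 5014 CPM in acid-treated and 2902 CPM in unstressed cells (log2 fold change 0.79 ± 0.22 SE). RPL12a (ZBIST_3342) had 3510 CPM in acid-treated and 2042 CPM in unstressed cells (0.78 ± 0.22 SE). RPL38 (ZBIST_3893) had 1502 CPM in acid-treated and 876 CPM in unstressed cells (0.78 ± 0.23 SE). The most abundant member, RPS23b (ZBIST_2251), had 9910 CPM in acid-treated and 6566 CPM in unstressed cells, with an FDR of 0.034, the weakest of the group. At an FDR below 0.01, 11 of the 21 stayed on the list. In S. cerevisiae many ribosomal protein genes have near-identical copies, but the paper describes Z. bailii as a species from before the whole genome duplication. Each of the 21 listed ORFs carries a different homologue name. Whether reads were shared between similar copies was not tested.

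Among higher ORFs outside this group, 4 with roles in translation or RNA were named after their values were seen. HYP2 (ZBIST_2635), the gene of translation factor eIF5A, had 7968 CPM in acid-treated and 5265 CPM in unstressed mutant cells (log2 fold change 0.60 ± 0.27 SE). TMA19 (ZBIST_4965), for a ribosome-associated protein, had 4070 CPM in acid-treated and 2618 CPM in unstressed cells (0.64 ± 0.23 SE). SNU13 (ZBIST_1726), for a protein of snoRNA and spliceosome particles, rose by 0.68, and RPC19 (ZBIST_2902), for a subunit shared by RNA polymerases I and III, rose by 0.63. A separate list of 101 ORFs of ribosome biogenesis had 0 higher and 0 lower members. That list leaves out PXR1 (ZBIST_1448, -0.67) and NAF1 (ZBIST_2919, -0.93), genes of rRNA or snoRNA maturation, and both were lower.

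Mitochondrial genes gave a few more increases. QCR9 (ZBIST_0212), for a subunit of the cytochrome bc1 complex, had 581 CPM in acid-treated and 323 CPM in unstressed mutant cells (log2 fold change 0.85 ± 0.27 SE). TIM9 (ZBIST_1739), for a chaperone of the intermembrane space, had 856 CPM in acid-treated and 489 CPM in unstressed cells (0.81 ± 0.24 SE). HSP10 (ZBIST_4747), for the co-chaperonin of the matrix, had 1972 CPM in acid-treated and 1130 CPM in unstressed cells (0.80 ± 0.22 SE). ATP16 (ZBIST_4700), for a subunit of the ATP synthase, rose by 0.59. Respiratory chain and ATP synthase genes thus had 2 higher and 0 lower members among 11 ORFs, and of 27 ORFs of mitochondrial import and carriers, 1 was higher and 3 were lower. Those 3 were YIA6 (-0.82), a carrier of NAD, ERV1 (-0.67), a sulfhydryl oxidase of import, and MAS1 (-0.62), a subunit of the matrix processing peptidase. Of 16 ORFs of the mitochondrial ribosome and translation, 1 was lower, RPM2 (-1.42), the protein subunit of mitochondrial RNase P. HSP10 was also the 1 higher ORF among 42 chaperones and heat shock proteins, of which 0 were lower. That 1 of 42 lies near the 2.39% of all named ORFs that were higher. The counts for import and for mitochondrial translation also lie near the shares of all named ORFs (2.39% higher, 8.03% lower).

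The remaining named increases were CLB5 (ZBIST_2268), an S-phase cyclin gene with 70.9 CPM in acid-treated and 39.8 CPM in unstressed mutant cells (log2 fold change 0.83 ± 0.23 SE), and ARF2 (ZBIST_2657), for a small GTPase of vesicle traffic (0.72). Among higher ORFs without a named homologue, ZBIST_3016 (0.97), ZBIST_3794 (0.89) and ZBIST_4782 (0.86) stood just below RPS28b. ZBIST_3016 was at 8.34 CPM in acid-treated and 4.26 CPM in unstressed cells and had an FDR of 0.048, close to the limit. The smallest increases and decreases listed were 0.59 (ZBIST_2376) and -0.59 (ZBIST_2642). Values just outside the limit are not in the table.

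**Figure D2:**
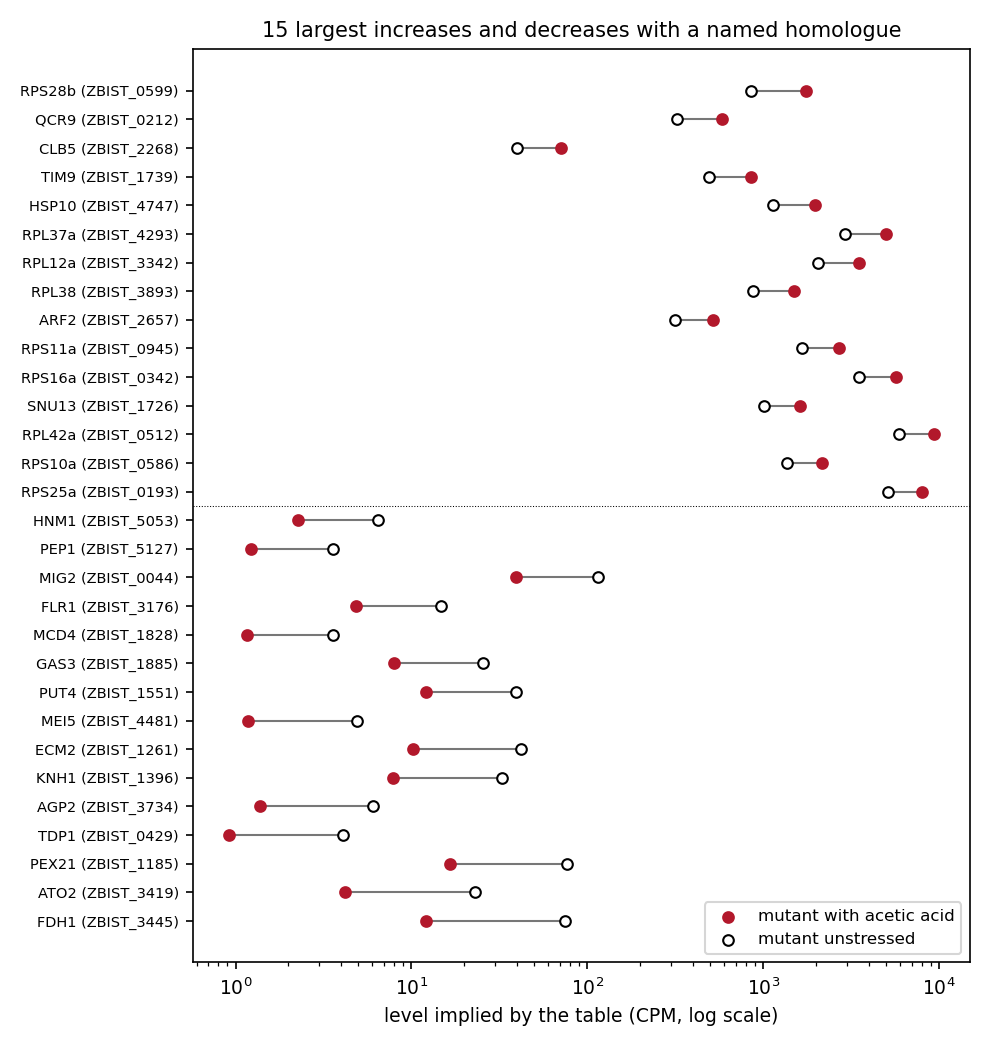
Implied level in CPM (log axis) of acid-treated (filled) and unstressed (open) mutant cells for the 15 largest increases (above the dotted line) and the 15 largest decreases (below it) with a named homologue. The increases, RPS28b first, are short steps at 39.8 to 9401 CPM, whereas the decreases, FDH1 last, are longer steps at 0.91 to 115 CPM.

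The 6 largest decreases belonged to ORFs without a named homologue. ZBIST_4788 had 32.7 CPM in acid-treated and 796 CPM in unstressed mutant cells, a 24.3-fold lower level (log2 fold change -4.60 ± 0.65 SE, n = 3 libraries each, edgeR FDR = 1.71e-12). ZBIST_3145 had 1.25 CPM in acid-treated and 29.0 CPM in unstressed cells (-4.54 ± 0.45 SE). ZBIST_4935 had 36.1 CPM in acid-treated and 302 CPM in unstressed cells (-3.06 ± 0.31 SE). ZBIST_1449, the most abundant of the lower ORFs, had 313 CPM in acid-treated and 2033 CPM in unstressed cells (-2.70 ± 0.22 SE, FDR = 2.70e-33). ZBIST_5023 stood at -2.87 and ZBIST_3609 at -2.69. For 6 ORFs the level in acid was below 1 CPM, ZBIST_3609 (0.86 CPM), ZBIST_2572 and TDP1 among them, and such fold changes depend on the prior count added before the logarithm.

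FDH1 (ZBIST_3445), for formate dehydrogenase, had the largest decrease with a named homologue. Its level was 12.1 CPM in acid-treated and 75.1 CPM in unstressed mutant cells (log2 fold change -2.63 ± 0.59 SE, FDR = 7.31e-06). PEX21 (ZBIST_1185), for a peroxin that helps to import thiolase into peroxisomes, had 16.6 CPM in acid-treated and 77.0 CPM in unstressed cells (-2.22 ± 0.20 SE). The gene of that thiolase, POT1 (ZBIST_2981), fell by 1.21, and ADR1, an activator of peroxisomal and ethanol genes, fell by 0.75. Of 19 ORFs of fatty acid oxidation and peroxisomes, these 3 were lower and 0 were higher. Further decreases fell on TDP1 (-2.15), for a DNA repair phosphodiesterase, AGP2 (-2.14), a regulator of polyamine and carnitine uptake, ECM2 (-2.05), a splicing factor, and MEI5 (-2.05), a factor of meiotic recombination. KNH1 (-2.06) and GAS3 (-1.69), genes of cell wall glucan assembly, and YPS1 (-0.78), a cell surface protease gene, were the lower members among 31 cell wall ORFs, of which 0 were higher. MCD4 (-1.63), of GPI anchor synthesis, and PEP1 (-1.54), a vacuolar sorting receptor gene, were at 1.16 CPM and 1.23 CPM in acid.

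Transport and sensing of sugars was the list with the highest share of lower members. Of 11 ORFs of hexose and polyol transport and glucose sensing, 9 were lower, 0 were higher and 2 were not listed, with a median of -1.09, beside -0.997 over all lower ORFs. MIG2 (ZBIST_0044), a glucose-dependent repressor gene, had 39.3 CPM in acid-treated and 115 CPM in unstressed mutant cells (log2 fold change -1.55). Both ORFs named SNF3, a glucose sensor, fell, ZBIST_2659 by 1.48 and ZBIST_3428 by 0.85. TDA1 (-1.23) and SKS1 (-1.09), kinase genes of glucose signalling, the glycerol symporter gene STL1 (-1.19), GSF2 (-0.91), MTH1 (-0.86) and GAL2 (-0.79) made up the rest. Glycolysis and fermentation genes (12 ORFs) had 0 higher and 0 lower members. Between the strains in acid, however, 4 of these 12 were listed, with the lower level in the mutant. Of all annotated ORFs, 1.07% were lower in that comparison, though the list holds only ORFs listed in some comparison.

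Of 17 ORFs of gluconeogenesis, the glyoxylate cycle and their regulators, 8 were lower, 0 were higher and 9 were not listed, with a median of -0.88 among the listed ones. FBP1 (ZBIST_1400), for fructose-1,6-bisphosphatase, had 75.6 CPM in acid-treated and 161 CPM in unstressed mutant cells (log2 fold change -1.09). VID24 (-1.004), which targets that enzyme for degradation, fell with it. The other members were TYE7 (-1.22), an activator of glycolytic genes, PFK26 (-0.90) and PFK27 (-0.74), kinases that make fructose-2,6-bisphosphate, the activator gene CAT8 (-0.87), ICL2 (-0.79) and ADR1. The list thus holds regulators of both glycolysis and gluconeogenesis. Of 10 ORFs of galactose and glycerol metabolism, GAL7 (-1.43) and GUT2 (-0.99) were lower and 0 were higher. Of 12 ORFs of the TCA cycle, 0 were higher and 0 were lower.

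Transporters of other substrates followed. Of 10 ORFs of acetate, monocarboxylate and ammonium export, 5 were lower and 0 were higher. Both ORFs named ATO2, of a family of ammonium and acetate transporters, are neighbours on their contig and both fell. ZBIST_3419 had 4.20 CPM in acid-treated and 23.0 CPM in unstressed mutant cells (log2 fold change -2.46 ± 0.97 SE), and ZBIST_3418 fell by 0.84. The others were AQY3 (ZBIST_4920, -1.46), an aquaglyceroporin gene, YHL008C (-1.25) and MCH4 (-0.91). Of 36 permeases for nitrogen sources and other nutrients, 11 were lower and 0 were higher, with a median of -0.89. PUT4 (-1.71), the proline permease gene, HNM1 (-1.50), the choline transporter gene, VBA1 (-1.15) and the ammonium permease gene MEP3 (-1.05) fell most after AGP2. BAP3, CAN1, GAP1, UGA4, PHO84 and FCY2 lay between -0.89 and -0.61. Of 27 ORFs listed as drug and polyamine transporters and their regulators, 8 were lower and 0 were higher. FLR1 (ZBIST_3176, -1.60) and the regulator gene YRM1 (-1.39) fell most. The 8 also count RCH1 (-1.21), a gene of calcium homeostasis, which is not of this kind. Both ORFs named TPO1, a polyamine exporter, were lower, ZBIST_1685 by 1.16 and ZBIST_3170 by 0.91.

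Some decreases came with a wide replicate error. Among the 177 listed ORFs with an average of at least 4 log2 CPM, the median implied SE was 0.26 on the log2 scale. PUT4 (0.73), AQY3 (0.72), CCP1 (0.68), ZBIST_4788 (0.65) and FDH1 (0.59) had the largest implied SEs. AQY3 stood at 161 CPM in acid-treated and 445 CPM in unstressed mutant cells, with an FDR of 0.041. Which libraries carried this spread was not tested.

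The other lists had few members in the table, and cell wall (3 of 31), DNA replication and cell cycle (4 of 61) and oxidative stress (2 of 30) genes were lower at a share near the 8.03% of all named ORFs. Of 24 ORFs of iron, zinc and copper handling, 4 were lower and 0 were higher, all of them of zinc handling, with IZH1 at -1.19, the zinc regulator gene ZAP1 at -0.94 and the 2 ORFs named ZRT1, a zinc transporter, at -1.0015 (ZBIST_4639) and -0.67 (ZBIST_3520). Of 61 ORFs of DNA replication, repair and the cell cycle, CLB5 was higher and 4 were lower. These were TDP1, the G1 repressor gene WHI5 (-1.31), the kinetochore gene OKP1 (-0.83) and the G1 cyclin gene CLN3 (-0.81). Of 22 ORFs of mating and meiosis, MEI5, MUM2 (-1.11), MATALPHA1 (-0.96) and YNG2 (-0.65) were lower and 0 were higher. Of 30 ORFs of oxidative stress defence, CCP1 (-1.44), for cytochrome c peroxidase, and OYE2 (-0.77) were lower and 0 were higher. In a list of 26 ORFs for sterols and membrane lipids, HNM1, RSB1 (-1.15) and ISC1 (-1.001) were lower and 0 were higher. HNM1 and RSB1 encode transporters counted above as well, and ISC1 a sphingolipid phospholipase, so none of the 3 is a synthesis gene. Of 12 ORFs of trehalose and glycogen, the branching enzyme gene GLC3 (-0.997) was lower. Amino acid biosynthesis (41 ORFs), the proteasome (41 ORFs) and potassium and plasma membrane ion transport (6 ORFs) had 0 higher and 0 lower members.

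**Figure D3:**
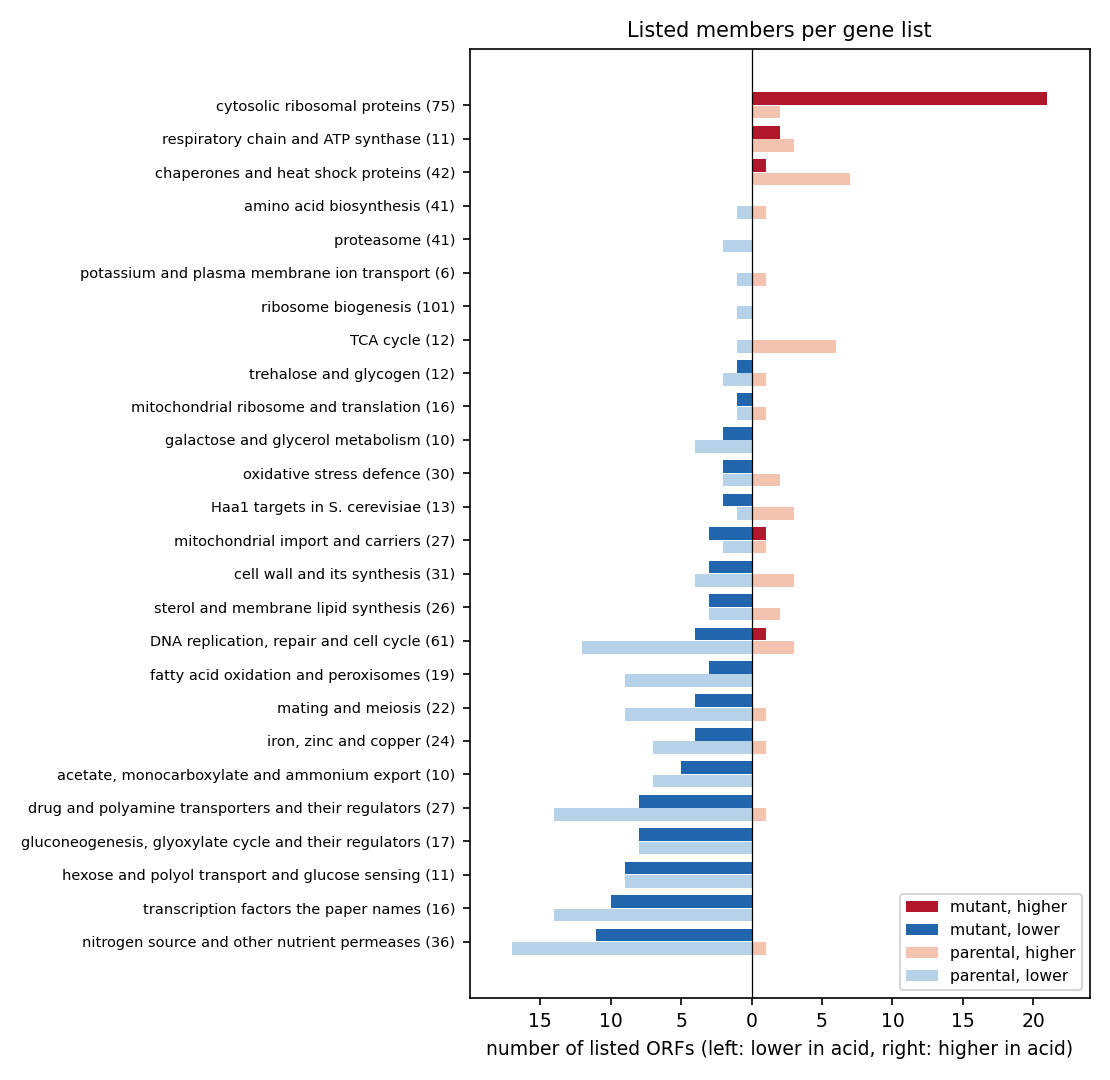
Number of listed ORFs per gene list, lower in acid to the left and higher in acid to the right, for the mutant (dark bars) and the parental strain (pale bars), with the number of named members of each list in parentheses. Cytosolic ribosomal proteins have 21 higher ORFs in the mutant and 2 in the parental strain, chaperones 1 in the mutant and 7 in the parental strain, and the TCA cycle 0 in the mutant and 6 in the parental strain.

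The parental strain gave the same comparison in other libraries. There, 66 ORFs were higher (1.28% of annotated ORFs) and 231 were lower (4.49%) after acetic acid. Both strains shared 124 ORFs, of which 9 were higher in both, 115 were lower in both and 0 moved in opposite directions. The shared lower ORFs were 56.1% of the mutant's lower ORFs and 49.8% of the parental ones. The shared higher ORFs were 14.3% of the mutant's higher ORFs and 13.6% of the parental ones.

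The 2 directions differed most among well-expressed ORFs with large parental changes. Of 59 ORFs that fell by over 2-fold in the parental strain at an average of at least 4 log2 CPM, 53 (89.8%) were listed as lower in the mutant. Of 13 ORFs that rose by over 2-fold there at such levels, 1 (7.69%) was listed as higher in the mutant, and that was CLB5. For parental changes of up to 2-fold at such levels the shares were 30 of 85 lower ORFs (35.3%) and 7 of 47 higher ORFs (14.9%). These shares are descriptions, since being listed in one strain and not in the other is no test of a difference.

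The 9 ORFs higher in both strains had like values. The mutant and parental log2 fold changes were 1.04 and 0.84 for RPS28b, 0.83 and 1.03 for CLB5, 0.81 and 0.68 for TIM9, and 0.78 and 0.69 for RPL38. They were 0.72 and 0.72 for ARF2 and 0.59 and 0.60 for ATP16. ZBIST_4782, ZBIST_2265 and ZBIST_0497 have no named homologue. Of the 21 higher ribosomal protein ORFs, 2 were also listed in the parental strain, RPS28b and RPL38. No ribosomal protein ORF was listed between the strains in acid (0 of 75), so a difference between the strains is not shown for this group.

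Among the 115 shared lower ORFs the median log2 fold change was -1.08 in the mutant and -1.23 in the parental strain. The decrease was smaller in the mutant for 73 of them. Across all 124 shared ORFs the mutant minus parental difference had a median of 0.12 and lay between -0.72 and 1.94. Pearson's r across the 115 shared lower ORFs was 0.89, as a description, since ORFs share their libraries and were chosen for passing in both strains. By an approximate z test with the implied SEs, 0 of 124 differences (0%) passed an adjusted p of 0.05, and 3 had an unadjusted p below 0.05. ORFs listed in a single strain could not enter this test, and the implied SEs are larger than the true ones. The 0 therefore does not show that the strains respond alike. ZBIST_2710, without a named homologue, stood at -1.79 in the mutant and -3.73 in the parental strain, a difference of 1.94 (95% interval 0.67 to 3.22, z test, adjusted p = 0.344). POT1 stood at -1.21 in the mutant and -2.34 in the parental strain (difference 1.13, 0.26 to 2.00), and ATO2 (ZBIST_3418) at -0.84 in the mutant and -1.55 in the parental strain (difference 0.72, 0.07 to 1.36). ZBIST_3841, ZBIST_1850 and ZBIST_1449 followed with differences of 0.91, 0.86 and 0.86. On the other side, ZBIST_3609 (-0.72), TDP1 (-0.47), RPM2 (-0.39), FLR1 (ZBIST_3176, -0.37) and AGP2 (-0.31) had the larger decrease in the mutant, each with an interval that includes 0.

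**Figure D4:**
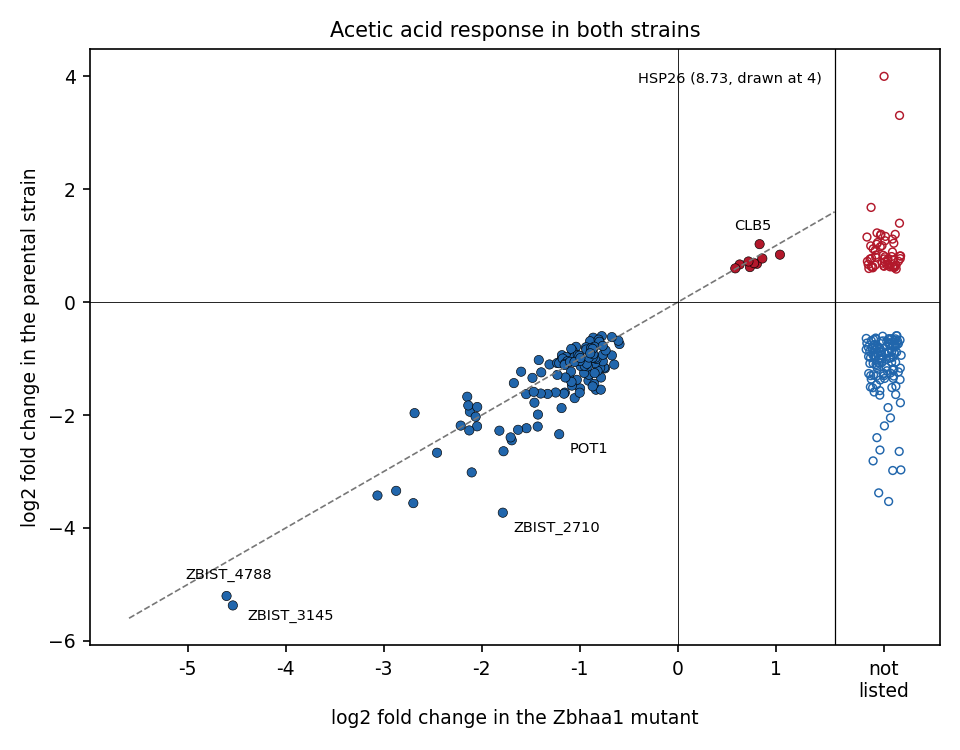
Log2 fold change in acetic acid in the mutant (horizontal axis) and in the parental strain (vertical axis) for the 124 ORFs listed in both (filled points), with the line of equal change dashed. Open points at the right are the ORFs listed in the parental strain alone, spread sideways for clarity, 57 higher and 116 lower. All 124 shared ORFs have the same sign in both strains, and ZBIST_2710 (-1.79 in the mutant, -3.73 in the parental strain) lies farthest from the line.

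Gene lists can hold only ORFs with an entry in the supplementary tables, which cover the parental response but not the mutant's own. Of the mutant's lower ORFs with an entry, 115 of 139 (82.7%) were shared with the parental strain, and of its higher ORFs 9 of 36 (25%), so the shares below are read against these and are no evidence about single lists. All 9 lower ORFs of sugar transport and sensing in the mutant were the 9 that were lower in the parental strain. For gluconeogenesis and its regulators 7 of the 8 ORFs lower in the mutant were among the 8 lower in the parental strain, and the other was TYE7. For acetate, monocarboxylate and ammonium export the mutant's 5 were among the parental strain's 7, and for nutrient permeases 10 of the mutant's 11 were among the parental strain's 17. For drug and polyamine transporters 7 of the mutant's 8 were among the parental strain's 14. All 10 lower ORFs among 16 ORFs of transcription factors taken from the paper were among the 14 lower in the parental strain, led in the mutant by MIG2, SFL1 (-1.47), YRM1 and GSM1 (-1.05). The paper picked those factors on the parental libraries, so their count in that strain is no independent evidence. The 7 parental increases among chaperones and the 6 among TCA cycle genes had 0 counterparts in the mutant's table. Between the strains in acid, 7 of the 42 chaperone ORFs but 1 of the 12 TCA cycle ORFs, MDH1, were listed. These 7 chaperone ORFs include HSP30, which was not a parental increase, and leave out BTN2, which was. A strain difference is thus not shown for BTN2 or for the other TCA cycle genes. CIT1 (0.74), ACO1 (0.74) and SDH2 (0.82) carry parental values only.

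Of the 66 ORFs that were higher in the parental strain, 17 were also listed between the strains in acid, with the lower level in the mutant. None of these 17 was listed in the mutant's own response (0 of 17), against 9 of the other 49. The table between the strains in acid shares its parental libraries with the parental response and its mutant libraries with the mutant's response, so these counts are not independent. Between the strains in acid 55 ORFs were lower in the mutant (1.07% of annotated ORFs). The small heat shock protein gene HSP26 (ZBIST_0079) stood at 3.31 in the parental response and at -2.87 between mutant and parental strain in acid. HSP42, HSP104 and HSP78 (log2 fold changes of 1.18, 1.16 and 0.83 in the parental response) stood at -1.22, -1.14 and -0.87 between the strains in acid. Further ORFs of the 17 were SSA3, for a heat-inducible Hsp70, YGP1, for a secreted glycoprotein, ARR3, MMF1, MCR1 and MDH1. The sum of both values gives acid-treated mutant cells over unstressed parental cells, and its median over the 17 ORFs was -0.08. For 11 of the 17 this sum was smaller in size than the listing limit of 0.585.

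HSP26 (ZBIST_3442) stood apart among the 17, with a sum of 5.47, and the next highest was 0.51. Its level was 1.64 CPM in acid-treated mutant cells and 15.8 CPM in acid-treated parental cells. Its unstressed parental level was -4.71 log2 CPM, so the sum depends on the prior count, and the mutant's own table does not list it. For YGP1 and ARR3 the table of the unstressed strains also holds a value, with a log2 fold change of mutant over parental cells of -1.16 for YGP1 and -1.31 for ARR3. The mutant response that follows from the 3 tables was -0.15 for YGP1 and -0.07 for ARR3. Homologues of Haa1-dependent genes that the paper names (HRK1, YRO2, YGP1 and the heat shock genes HSP104, HSP78, HSP42, HSP30 and HSP26) have 10 ORFs in the supplementary tables, 3 of them named HSP26. Of these 10, 0 were higher and 1, HRK1, was lower in the mutant's response. The paper named the genes from the comparison between the strains in acid, where 9 of these 10 were lower in the mutant. That comparison uses the same acid-treated mutant libraries, so these counts are no independent evidence. A further HSP26 copy, ZBIST_4487, has no entry in the supplementary tables and is not in the mutant's table. In the wider list of 13 ORFs of Haa1 targets in S. cerevisiae, HRK1 and YPS1 were lower and 0 were higher, and 3 were higher and 1 was lower in the parental strain.

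Of the 268 ORFs, 8 were listed also between the strains in acid, and these 8 were lower in both comparisons. Both comparisons use the same acid-treated mutant libraries, so this is not independent. FDH1 had 12.1 CPM in acid-treated mutant cells, 75.1 CPM in unstressed mutant cells and 34.4 CPM in acid-treated parental cells, and fell by 2.63 in the mutant's response and by 1.65 against the parental strain in acid. HNM1 (ZBIST_5053) had 2.27 CPM in acid-treated and 6.42 CPM in unstressed mutant cells, with 10.7 CPM in acid-treated parental cells. YPS1 had 10.5 CPM in acid-treated and 18.1 CPM in unstressed mutant cells, with 32.1 CPM in acid-treated parental cells. HRK1, for a kinase that activates the plasma membrane proton pump, had 41.3 CPM in acid-treated and 63.1 CPM in unstressed mutant cells, with 74.2 CPM in acid-treated parental cells. STP3, for a zinc finger protein, was the 1 of the 8 that was listed in the parental response too (-1.23 in the mutant, -1.08 in the parental strain). GIS4 (-0.59 in the mutant's response, -0.76 between the strains) and ZBIST_0421 (-0.91 and -1.05) completed the group.

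RSB1 (ZBIST_2178), for a transporter of sphingoid bases, was the 1 ORF of the mutant's response listed also between the unstressed strains, where 14 ORFs were listed (0.272% of annotated ORFs). It stood at -1.15 in the mutant's response, at -2.48 between the strains in acid and at -1.29 between the unstressed strains. Its level was 3.59 CPM in acid-treated and 7.97 CPM in unstressed mutant cells. These 3 fold changes leave a parental response of 0.04, and RSB1 is not in the parental table.

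The ORFs that rose in the mutant were short. The annotated gene span was below 500 bp for 48 of 63 higher ORFs (76.2%), 15 of 205 lower ORFs (7.32%) and 631 of all 5141 annotated ORFs (12.3%). The median span was 402 bp for the higher and 1335 bp for the lower ORFs, and 1209 bp over the annotation. ORFs named as ribosomal protein genes did not account for all of this, since 31 of the 42 other higher ORFs (73.8%) were below 500 bp as well. Of those 42, however, 27 have no homologue entry and could include ribosomal protein genes. In the parental strain 13 of 65 higher ORFs with a known span (20%) and 28 of 231 lower ORFs (12.1%) were that short. The libraries were made from the 3' end of transcripts, where a count does not scale with transcript length. Whether the libraries of the mutant differ in fragment size or RNA quality was not tested.

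**Figure D5:**
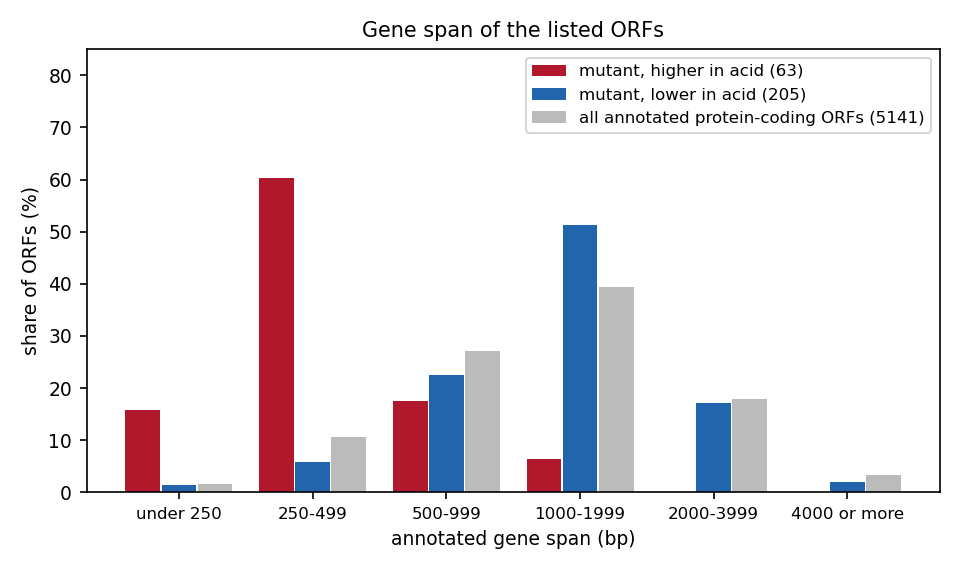
Share of ORFs in percent (vertical axis) by annotated gene span in bp (horizontal axis) for the 63 higher and 205 lower ORFs of the mutant and all 5141 annotated protein-coding ORFs. The higher ORFs peak from 250 to under 500 bp (60.3%), where the annotation has 10.7%, and the lower ORFs peak from 1000 to under 2000 bp (51.2%).

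On the contigs, 34 of the 268 ORFs formed 17 pairs of direct neighbours. The number of pairs that 268 of 5141 annotated ORFs would form if placed at random was not computed. The counts of pairs are therefore a description and show no neighbour pattern. Both neighbours were lower in 11 pairs, both were higher in 1 pair and they moved in opposite directions in 5 pairs. RPS22a (ZBIST_0719) and RPS14b (ZBIST_0720), at 0.65 and 0.62, formed the pair that rose. RPS28b lies next to ZBIST_0598, which fell by 1.46, and RPL12a next to ZBIST_3341, which fell by 0.75. PUT4 and CIN1 (-1.15), SFL1 and ZBIST_1607 (-0.85), and ADR1 and MDM30 (-0.60) were among the pairs that fell.

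Copper, the other stress given to the parental strain, shared 19 ORFs with the mutant's acid response, 7.09% of the mutant's list and 10% of the 190 ORFs listed for copper, which are 3.7% of annotated ORFs. Of these 19, 3 were higher in both, 14 were lower in both and 2 moved in opposite directions. CLB5 stood at 0.83 in the acid-treated mutant and at 0.92 in copper-treated parental cells. PEX21 (-2.22 in the mutant with acid, -0.92 in the parental strain with copper), RPM2 (-1.42 and -0.80), TDA1 (-1.23 and -1.08) and TYE7 (-1.22 and -1.09) were lower in both. The zinc transporter gene ZRT1 (ZBIST_4639) stood at -1.0015 in the acid-treated mutant and at 2.67 in copper-treated parental cells. BUL1, for a ubiquitin ligase adaptor of permeases, stood at -1.18 in the acid-treated mutant and at 0.91 in copper-treated parental cells.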

How the data were processed

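The authors sequenced 3' tag libraries of 18 cultures from 3 independent experiments, trimmed and mapped the reads (STAR 2.5.2a), and counted genes (HTSeq). Genes had to reach 1 CPM in at least 3 samples of a condition, and the authors then made the comparisons with edgeR and TMM factors. The log2 fold changes and average log2 CPM values are those the authors deposited, and the FDR (an adjusted p-value) was deposited with them. A total of 5 comparison tables were used, and 1 was not used. The comparison was taken from its table's name. Depth per library was not used here, so no counting interval is given.

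Group levels in CPM were computed from fold change and average, with both groups weighted equally on the linear scale. Implied SEs took the FDR as a p-value. Strain differences were tested with a two-sided approximate z test and Benjamini-Hochberg adjustment over 124 ORFs. Calculations used Python 3.11.15, numpy 2.4.6, scipy 1.17.1 and pandas 2.3.3. The z test was tried on simulated responses.

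The members and the 27 gene lists were chosen with earlier results of these data known. The lists come from general knowledge, and 1 of transcription factors from the paper; they hold only ORFs named in the supplementary tables, each listed in at least 1 comparison. Names there cover 1295 of 1607 ORFs. The text names the 15 largest changes with a named homologue and the 5 largest of any name per direction, up to 4 members of each list, the 5 largest strain differences per direction, ORFs moving in opposite directions in the strains, ORFs listed also between the strains, and those the paper names as ZbHaa1-dependent in acid. Other ORFs named were chosen after their values were seen.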

Additional observations from a re-analysis of the deposited data

How the results depend on the processing

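No paired analysis was possible because the tables hold no values per library, and leaving out single replicates was not run for the same reason. At an FDR below 0.01 the table kept 32 higher and 124 lower ORFs, and 5 higher and 73 lower ORFs were shared with the parental strain. At a fold change of at least 2 it kept 1 higher and 102 lower ORFs, and 0 higher and 60 lower ORFs were shared. With an average of at least 4 log2 CPM it kept 119 lower ORFs and 74 shared lower ORFs. The higher ribosomal protein ORFs numbered 11 at the stricter FDR and 1 at the stricter fold change. Under both alternatives for the z test 0 ORFs passed, with 7 at an unadjusted p below 0.05 when p was taken as FDR times rank over annotated ORFs. The median strain difference was 0.10 at an average of at least 4 log2 CPM. Weighting both groups equally on the log2 scale moved the median implied level to 4.25 log2 CPM in acid and 5.13 log2 CPM unstressed, against 4.20 in acid and 5.002 unstressed.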
